A study of Mus musculus with 18 samples.

Results

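The nuclear genes for mitochondrial ribosomal proteins were followed in mouse embryonic stem (ES) cells and fibroblasts with and without TRIM28. A gene was taken as a member when its symbol began with Mrps or Mrpl and a number, and 1 transcript was kept per symbol, the one with the highest mean of the wild-type and knockout libraries. This gave 76 genes on 17 chromosomes, out of 17818 symbols in the table of ES cells and 17813 in that of fibroblasts. All 76 were measured in both, at 1 RPKM or more (reads scaled to transcript length and library size) in at least 1 of the 2 libraries. By structural role, 26 belong to the small subunit and 49 to the large subunit, where Mrps18a and Mrps30 are counted despite their names. Mrps36 keeps a ribosomal name but is known in mammals as part of a matrix dehydrogenase complex.

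TRIM28 (KAP1) is a corepressor that KRAB zinc finger proteins bring to DNA. RNA was sequenced from ES3, an ES cell line, and from mouse embryonic fibroblasts (MEFs), each wild type or knocked out for Trim28 and all of strain C57BL/6. The ES3 cells were grown on gelatin in serum with leukaemia inhibitory factor, the wild type for 4 days and the knockout until 4 days after Cre was induced with 4-hydroxytamoxifen (4-OHT). The MEFs were a wild-type culture of 5 days and a knockout taken 5 days after the same induction, and the medium of the MEFs, like whether wild-type cells received 4-OHT, is not given in the sources used here. Duplicates were pooled before RNA extraction, so each of the 4 groups is 1 library. Differences therefore have no replicate check and no p-value, and genes are described by the size of their ratio.

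Mitochondria carry a ribosome of their own, descended from a bacterial one, which translates the few proteins that mitochondrial DNA encodes, all of them subunits of the oxidative phosphorylation complexes. Its RNAs come from mitochondrial DNA, whereas its proteins are encoded in the nucleus, made in the cytosol and imported. Compared with the bacterial ribosome it has lost RNA and gained proteins that exist only in mitochondria. Many of these nuclear genes have promoters without a TATA box, and NRF1, the ETS factor GABPA (NRF2) and YY1 are factors known for regulating nuclear genes of mitochondrial function.

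Promoter windows of the members were read from RefSeq (GRCm38.p6), from 250 bases before to 50 bases after the start, and 67 of 76 genes matched. The 6 windows printed here were picked as examples and are not the 6 widest contrasts in the results that follow. Mrpl18, which had the lowest ES3 ratio, is not among them. Mrpl34 and Mrps12 differed most between the cell types, Mrps24 had the highest fibroblast ratio, and Mrpl12 was the most abundant member in ES3 wild type. Mrpl37 was among the lowest ES3 ratios, and Mrpl52 was the highest. Capitals mark matches, on either strand, to NRF1 (GCGCANGCG), the ETS family (CCGGAAG), YY1 (AAGATGGCG) or the TATA box (TATAAA).
Mrpl34 (chr8:71464676-71464975, plus strand): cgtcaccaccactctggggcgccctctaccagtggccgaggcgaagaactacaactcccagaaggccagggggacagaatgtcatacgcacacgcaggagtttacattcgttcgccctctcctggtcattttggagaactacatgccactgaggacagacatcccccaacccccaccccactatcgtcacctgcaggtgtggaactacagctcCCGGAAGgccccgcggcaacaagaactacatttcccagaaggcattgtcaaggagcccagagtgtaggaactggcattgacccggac
Mrps12 (chr7:28741772-28742071, minus strand): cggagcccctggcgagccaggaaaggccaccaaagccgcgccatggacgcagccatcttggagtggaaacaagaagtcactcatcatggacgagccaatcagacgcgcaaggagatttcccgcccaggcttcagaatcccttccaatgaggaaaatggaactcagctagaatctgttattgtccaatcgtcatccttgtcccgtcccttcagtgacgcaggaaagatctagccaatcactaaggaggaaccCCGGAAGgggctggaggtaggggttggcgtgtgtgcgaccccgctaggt
Mrpl12 (chr11:120484387-120484686, plus strand): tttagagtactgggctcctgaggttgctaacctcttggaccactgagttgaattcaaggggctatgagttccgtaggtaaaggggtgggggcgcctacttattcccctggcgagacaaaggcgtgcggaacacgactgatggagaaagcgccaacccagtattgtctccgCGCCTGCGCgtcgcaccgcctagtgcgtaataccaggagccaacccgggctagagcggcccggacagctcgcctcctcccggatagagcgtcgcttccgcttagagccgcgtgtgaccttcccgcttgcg
Mrps24 (chr11:5707652-5707951, minus strand): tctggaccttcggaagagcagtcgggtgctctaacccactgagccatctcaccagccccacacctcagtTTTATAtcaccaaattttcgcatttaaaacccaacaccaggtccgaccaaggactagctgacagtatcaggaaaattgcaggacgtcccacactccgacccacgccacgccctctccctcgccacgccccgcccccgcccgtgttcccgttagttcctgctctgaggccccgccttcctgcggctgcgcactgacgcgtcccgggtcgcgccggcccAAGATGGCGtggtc
Mrpl37 (chr4:107066817-107067116, minus strand): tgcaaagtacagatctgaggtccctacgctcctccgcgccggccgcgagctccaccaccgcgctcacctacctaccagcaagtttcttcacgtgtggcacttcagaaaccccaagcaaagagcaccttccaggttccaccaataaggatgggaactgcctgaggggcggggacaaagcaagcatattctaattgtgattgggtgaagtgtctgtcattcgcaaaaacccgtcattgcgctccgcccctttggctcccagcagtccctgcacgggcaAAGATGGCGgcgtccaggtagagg
Mrpl52 (chr14:54426659-54426958, plus strand): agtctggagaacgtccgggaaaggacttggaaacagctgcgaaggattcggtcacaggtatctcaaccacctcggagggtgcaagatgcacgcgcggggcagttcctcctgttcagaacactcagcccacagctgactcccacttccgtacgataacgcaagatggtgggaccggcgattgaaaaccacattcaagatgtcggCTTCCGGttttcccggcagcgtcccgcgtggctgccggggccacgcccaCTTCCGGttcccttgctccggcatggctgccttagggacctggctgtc

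The ETS letters stand in the windows of Mrpl34, Mrps12 and Mrpl52, the NRF1 letters in that of Mrpl12, and the YY1 letters in those of Mrpl37 and Mrps24, where Mrps24 also holds TATAAA. Over the 67 matched genes, ETS letters were found in 24 (35.8%), against 20.1% of the genes measured in ES3 cells and 9.93% of all symbols with a window. NRF1 letters were found in 15 (22.4%, against 15.6% and 7.03%) and YY1 letters in 8 (11.9%, against 3.70% and 1.64%). At least 1 of the 3 was present in 40 members (59.7%), against 34.2% of measured genes and 16.5% of all. TATAAA occurred in 5 members (7.46%, against 8.62% and 15.7%). The median GC content of the members' windows was 58.0%, against 62.3% for the measured genes. These are letter matches in a fixed window and say nothing of binding.

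Trim28 itself (chr7:13609501-13616384, mm9) matched the labels. Its level in ES3 cells was 1051 RPKM in the wild-type library and 37.2 RPKM in the knockout library, or 3.54%, and in MEFs 62.8 RPKM and 5.84 RPKM, or 9.29%. The markers of each cell type were present. The 8 pluripotency markers summed to 2488 RPKM in ES3 wild type, and the 10 fibroblast markers to 6016 RPKM in MEF wild type. Of the pluripotency markers only Nanog reached 1 RPKM in MEFs, and only in the knockout (0.967 RPKM in wild type, 1.65 RPKM in the knockout). Sequencing depth is unknown, because the values are RPKM. Summed over all symbols they came to 318250 and 306318 in ES3 wild type and knockout, and to 308887 and 369572 in MEF wild type and knockout.

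In ES3 cells without TRIM28 the mitochondrial ribosomal protein genes were mostly a little lower. Their median log2 ratio of knockout to wild type, computed on RPKM + 1, was −0.22, with 57 of 76 below 0, whereas the median of all 12024 measured genes was 0.08 and 44.6% lay below 0. The RPKM of the 76 genes summed to 2911 in wild type and 2379 in the knockout, or 81.7%, and the share of all RPKM went from 0.915% to 0.777%. The differences were small for single genes. None of the 76 was 2-fold higher, against 12.5% of measured genes, and none was 2-fold lower, against 3.18%. At 1.5-fold, 9 were lower (10.8% of measured genes) and 1 was higher (24% of measured genes). The SD between the 76 ratios, 0.31, is spread among genes and not replicate error. In RNA taken from whole cultures, fewer cells of a type and less RNA per cell cannot be told apart.

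The lowest ES3 ratio was that of Mrpl18 (NM_026310, chr17:13104215-13109211, mm9), a large subunit protein with a bacterial counterpart, with 99.96 RPKM in the wild-type library against 52.8 RPKM without TRIM28 (log2 ratio −0.91, both values given in this order from here on). Mrps12 (chr7:29524661-29526809), which lies at the decoding centre of the small subunit, stood at 67.3 RPKM and 39.2 RPKM (−0.76). Mrpl34 (chr8:73988858-73989644), another large subunit protein with a bacterial counterpart, stood at 68.4 RPKM and 41.2 RPKM (−0.72). In wild type each of these 3 stood above the members' median of 33.5 RPKM, but that level is also the denominator of the ratio that ranked them. Mrpl37, a large subunit protein found only in mitochondrial ribosomes, stood at 58.4 RPKM and 35.9 RPKM (−0.69). Mrpl4, whose bacterial counterpart lines the exit tunnel, stood at 87.8 RPKM and 55.4 RPKM (−0.66). Mrpl38, of the mitochondria-specific proteins, completed the lowest 6 with 59.9 RPKM and 39.2 RPKM (−0.60).

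At the other end stood Mrpl52 (chr14:55045747-55048590), a mitochondria-specific large subunit protein, with 31.2 RPKM and 53.3 RPKM in the ES3 libraries (0.75). It was the only member 1.5-fold higher. Mrpl33 followed with 39.0 RPKM and 52.5 RPKM (0.42), and Mrpl32 with 9.28 RPKM and 12.2 RPKM (0.36). Mrpl54, Mrpl51 and Mrpl16 had log2 ratios of 0.31, 0.30 and 0.23. All 6 encode large subunit proteins, and Mrpl33, at 39.0 RPKM, was the most abundant of them in wild type. Across the 76 genes the rank correlation of mean level and ES3 ratio was −0.38, against −0.26 over all measured genes. It is a description over genes that share 2 libraries.

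In fibroblasts the picture was the reverse. The median log2 ratio of the 76 genes was 0.55, and 71 lay above 0, whereas all 10805 measured genes had a median of 0.00 and 50.3% lay above 0. The members' RPKM summed to 1792 in wild type and 2848 in the knockout, and their share of all RPKM went from 0.580% to 0.771%. No member reached 2-fold on RPKM + 1, against 0.981% of measured genes higher and 4.84% lower. At 1.5-fold, 33 of 76 were higher, against 11.6% of measured genes, and none was lower, against 16.4%. The SD between genes was 0.27. The plot of levels shows the shift gene by gene.

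**Figure D1:**
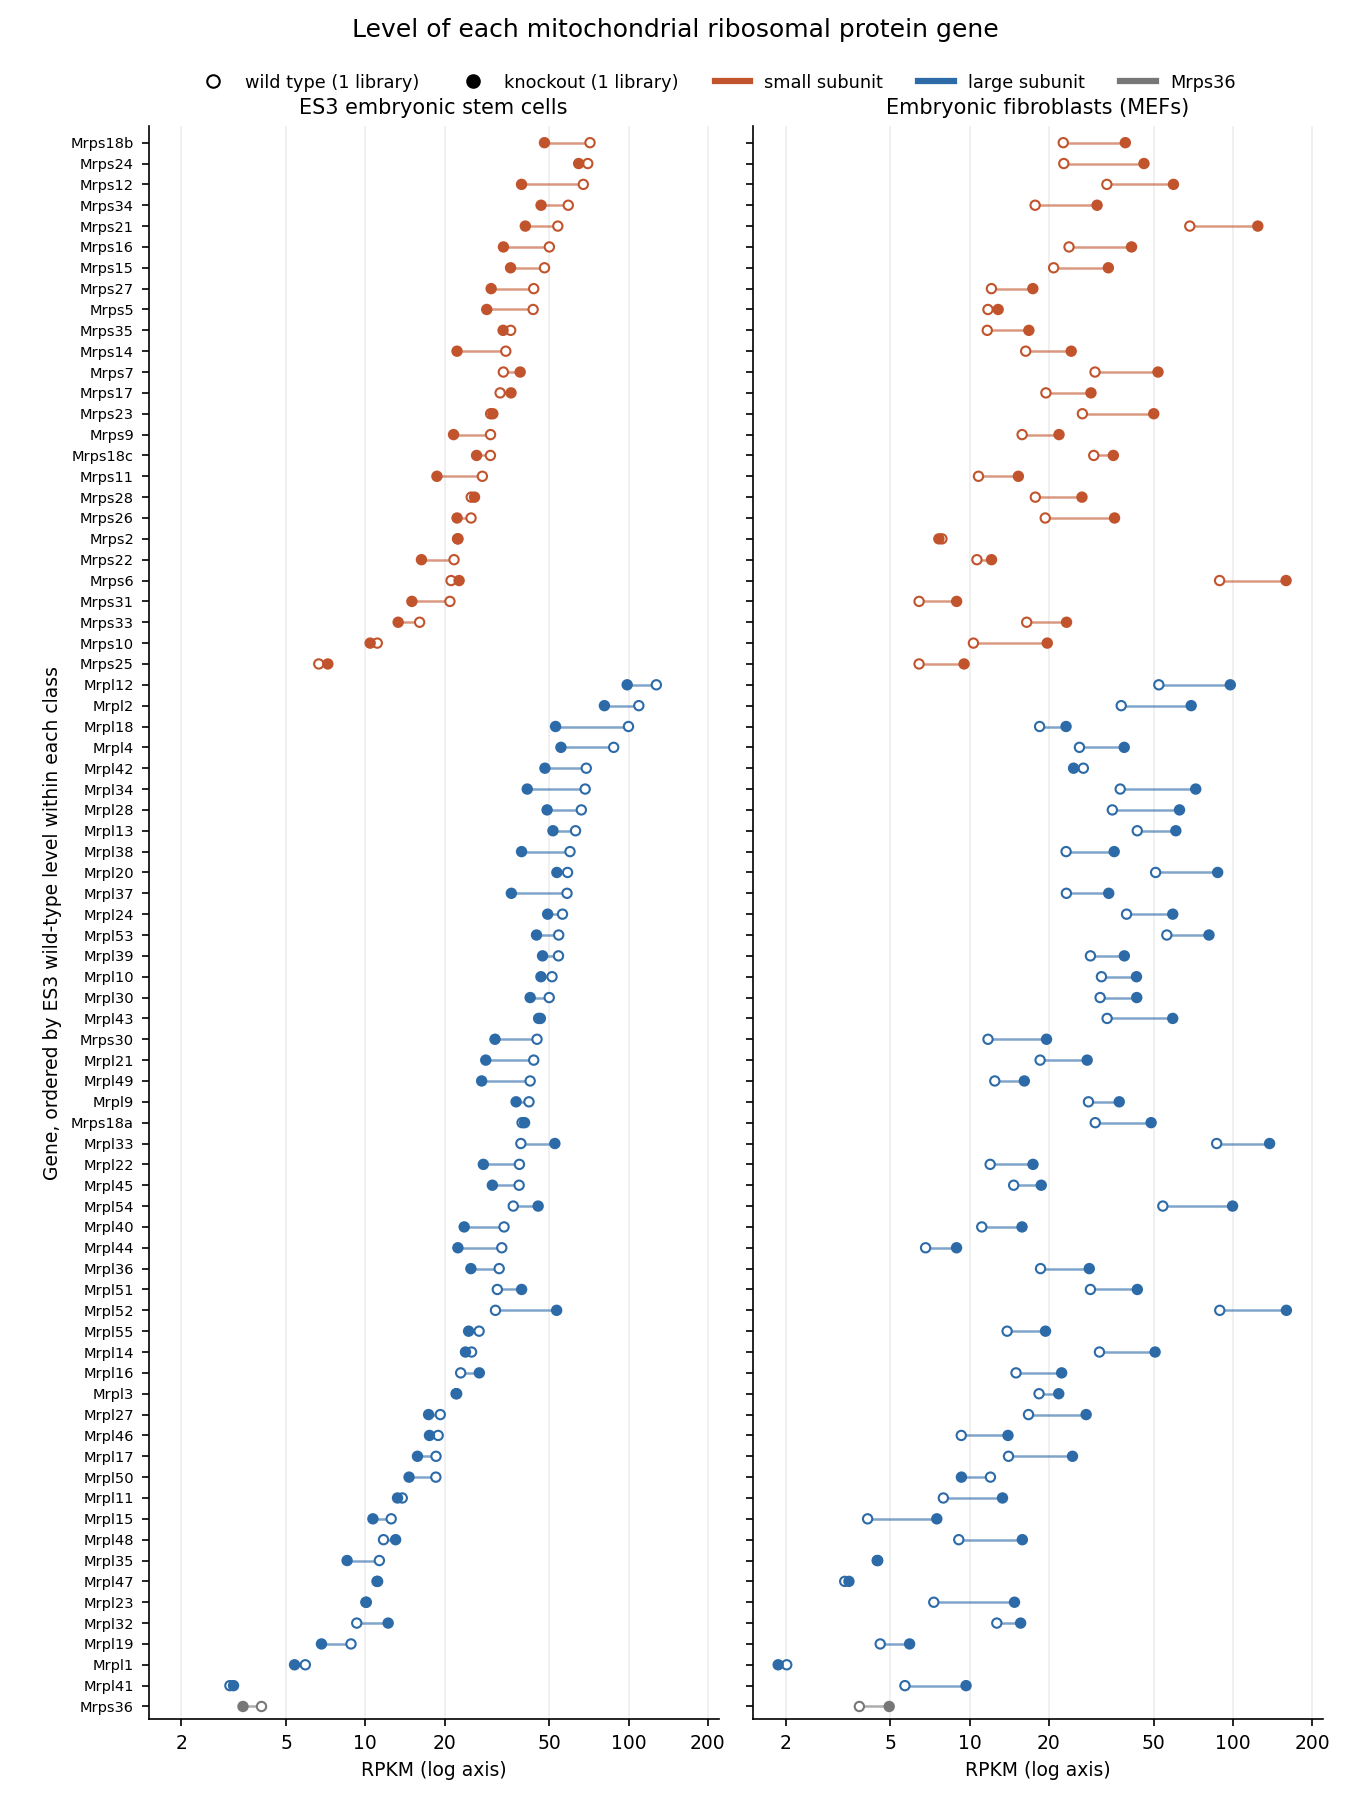
RPKM (log axis) of each of the 76 genes in wild type (open circles) and knockout (filled circles), for ES3 cells on the left and MEFs on the right, 1 library each, with small subunit genes above and large subunit genes below. In ES3 cells 57 filled circles lie to the left of their open circle, and in MEFs 71 lie to the right. The 2 tables were normalized separately, so levels are compared within a panel.

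Mrps24 (chr11:5603986-5615683), a small subunit protein, had the highest MEF ratio, with 22.8 RPKM and 45.9 RPKM (0.98). Mrpl34 stood at 37.3 RPKM and 72.2 RPKM (0.94). Mrpl23, whose bacterial counterpart sits at the mouth of the exit tunnel, stood at 7.30 RPKM and 14.8 RPKM (0.93). These 3 lay just short of 2-fold on the scale of log2(RPKM + 1). In RPKM alone, the knockout stood at 202% of wild type for Mrps24 and 203% for Mrpl23. Mrpl12 (chr11:120345927-120350379), the stalk protein that contacts translation factors, stood at 52.3 RPKM and 97.8 RPKM (0.89). The small subunit genes Mrps23, at 26.8 RPKM and 50.04 RPKM, and Mrps10, at 10.3 RPKM and 19.7 RPKM, followed with ratios of 0.88 and 0.87.

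The 5 members below 0 in MEFs were Mrpl50, Mrpl42, Mrpl1, Mrps2 and Mrpl35. Mrpl50, a mitochondria-specific large subunit protein, stood at 12.0 RPKM and 9.30 RPKM (−0.33). Mrpl42 stood at 27.03 RPKM and 24.8 RPKM (−0.12). For Mrpl1, Mrps2 and Mrpl35 the ratios of −0.07, −0.03 and −0.01 mean nearly equal values, all under 8 RPKM, and Mrpl47 came next at 0.04 with 3.35 RPKM and 3.48 RPKM. Low levels went with low MEF ratios: the rank correlation of mean level and ratio was 0.57 over the 76 genes and 0.35 over all measured genes.

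The order of levels was largely kept within a cell type and less so between them. The rank correlation of wild-type and knockout level over the 76 genes was 0.92 in ES3 cells and 0.98 in MEFs, and that of the wild-type levels of the 2 cell types was 0.68. The most abundant members in ES3 wild type were Mrpl12 (127.6 RPKM), Mrpl2 (109.4 RPKM), Mrpl18 and Mrpl4, and in MEF wild type Mrpl52 (89.2 RPKM), Mrps6 (89.04 RPKM), Mrpl33 (86.8 RPKM) and Mrps21 (68.6 RPKM). The lowest were Mrpl41 (3.06 RPKM) and Mrps36 (4.03 RPKM) in ES3 cells and Mrpl1 (2.02 RPKM) and Mrpl47 (3.35 RPKM) in MEFs. In all, 20 of the 76 (26.3%, against 20.3% of genes measured in ES3 cells) overlap the span of another gene, Mrps6 that of Slc5a3 among them, and their levels are uncertain because the sources used here do not say whether counting used strand. The 56 that overlap none had medians of −0.24 in ES3 cells and 0.55 in MEFs.

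Gene by gene, the fibroblast ratio exceeded the ES3 ratio in 73 of 76 members, against 43.1% of the 9932 genes measured in both. The median difference of log2 ratios, MEF minus ES3, was 0.76 for the members and −0.15 for all these genes. A ratio below 0 in ES3 cells and above 0 in MEFs was found for 53 members (24.7% of genes measured in both). The ratio was above 0 in both for 18 members (2616 of the 9932 genes) and below 0 in both for 4 (1922 genes). The reverse pattern was found for Mrps2 alone, at 0.01 and −0.03, against 2937 of the 9932 genes. With at least 1.25-fold in each direction, 26 members were lower in ES3 cells and higher in MEFs, against 6.83% of genes measured in both, and none showed the reverse. The rank correlation of a member's ES3 ratio with its MEF ratio was 0.15 over the 76 genes.

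**Figure D2:**
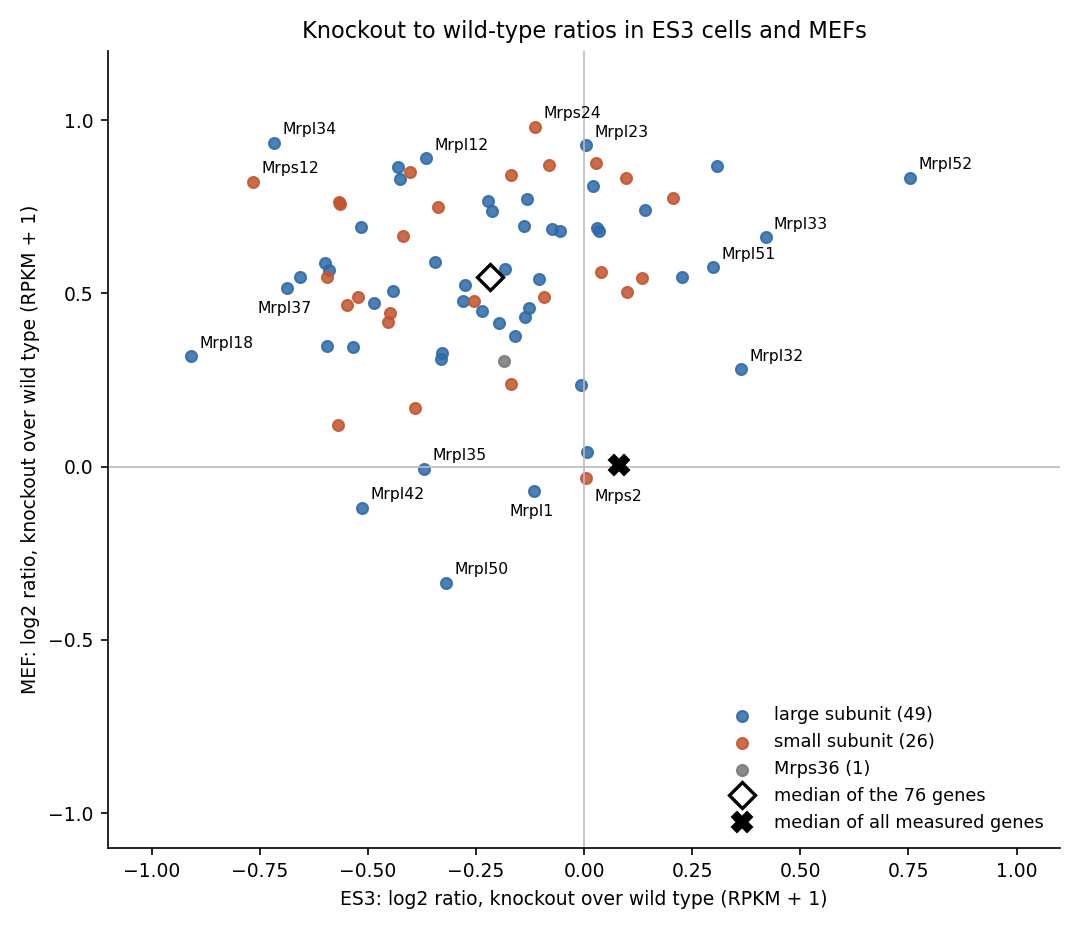
Log2 ratio of knockout to wild type, on RPKM + 1, in ES3 cells (horizontal axis) and MEFs (vertical axis) for each of the 76 genes, coloured by subunit. Most points lie in the upper left, lower in ES3 cells and higher in MEFs, with the members' median (diamond) at −0.22 and 0.55 and that of all measured genes (cross) at 0.08 and 0.00.

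The largest differences were those of Mrpl34 (1.65), Mrps12 (1.59), Mrps16 (1.33) and Mrps18b (1.32). Mrps12 stood at 33.2 RPKM and 59.5 RPKM in MEFs (0.82), against its ES3 ratio of −0.76. Mrps16 (chr14:21210453-21212777), a small subunit protein with a bacterial counterpart, stood at 50.03 RPKM and 33.5 RPKM in ES3 cells and at 23.8 RPKM and 41.2 RPKM in MEFs. For these genes the knockout library was the lower one in ES3 cells and the higher one in MEFs. The smallest differences belonged to Mrpl32 (−0.08), Mrps2 (−0.04), Mrpl50 (−0.02) and Mrpl47 (0.03). Mrpl52 was higher in the knockout of both cell types, at 89.2 RPKM and 159.7 RPKM in MEFs (0.83), a difference of 0.08.

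The medians of the subunits lay close together. The 26 small subunit genes had medians of −0.30 in ES3 cells (19 below 0) and 0.55 in MEFs (25 above 0), and the 49 large subunit genes −0.21 (37 below 0) and 0.55 (45 above 0). Genes named in the mitoribosome nomenclature after a bacterial counterpart (46) had medians of −0.20 and 0.57, and the 29 mitochondria-specific ones −0.27 and 0.52. No difference between these classes was tested. Mrps36, counted in neither subunit, stood at 4.03 RPKM and 3.43 RPKM in ES3 cells (−0.18) and at 3.81 RPKM and 4.95 RPKM in MEFs (0.31).

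Members with known roles in the ribosome give examples of the spread. Mrpl11, at the base of the stalk, had ratios of −0.06 in ES3 cells and 0.68 in MEFs, and Mrpl45, which ties the ribosome to the inner membrane, −0.33 and 0.33. Mrpl44, which resembles an RNase III, had −0.53 and 0.35, and Mrpl41 0.03 and 0.68. In the small subunit, Mrps7 had 0.21 and 0.78, and Mrps34 −0.34 and 0.75. Mrps18a, Mrps18b and Mrps18c are related proteins, of which Mrps18a sits in the large subunit and the other two in the small one. Their ES3 ratios were 0.03, −0.56 and −0.17, and their MEF ratios 0.69, 0.76 and 0.24. Mrps30, of the large subunit, had −0.52 and 0.69.

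Gene span, the length a gene covers on the chromosome with its introns, went with the ratio in fibroblasts, and these are short genes. The median span of the members was 7.73 kb, against 21.1 kb for the genes measured in ES3 cells and 21.96 kb for those measured in MEFs. Over all measured genes the rank correlation of span and ratio was −0.54 in MEFs and 0.07 in ES3 cells. Over the 76 members it was −0.33 and 0.04. When each gene was set against the median of its span class, 1 of 20 classes with equal numbers of genes, the members' MEF median went from 0.55 to 0.29, with 66 of 76 above 0 (50% of measured genes). That centred median was 0.52 with no filter on low values and 0.21 with a filter at 5 RPKM. Their ES3 median went from −0.22 to −0.28, with 62 below 0 (49.9% of measured genes). The span-centred difference between the cell types had a median of 0.61, and 70 members lay above 0, against 47.7% of genes measured in both.

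**Figure D3:**
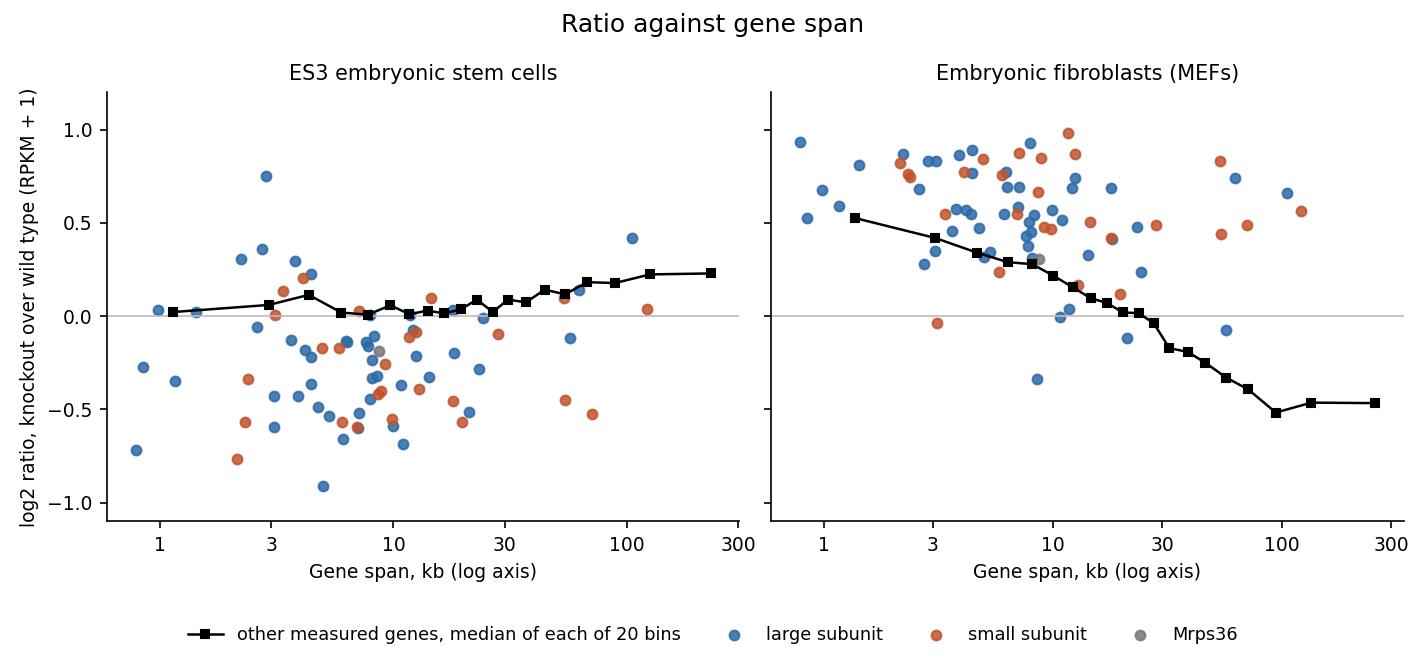
Log2 ratio of knockout to wild type (RPKM + 1) against gene span in kb (log axis) for the 76 genes (coloured points) and as medians of the other measured genes in each of 20 span classes (black squares), in ES3 cells and MEFs. In MEFs the black line falls with span while the members at 50 kb or more stay above 0 with 1 exception. In ES3 cells 62 of the 76 members lie below the median of their span class when members are counted in it, which the squares leave out.

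In MEFs the long members lay furthest from genes of their own span. Of the 7 genes at 50 kb or more, 6 lay above 0 in MEFs with a median of 0.56, whereas 2745 other genes of that length had a median of −0.42. Mrpl33, which spans 105 kb (chr5:31899308-32004345), stood at 86.8 RPKM and 137.9 RPKM in MEFs (0.66, and 1.18 after span centring). Mrps28, the longest at 122 kb, stood at 17.8 RPKM and 26.7 RPKM (0.56, and 1.02 after centring). Mrps27, at 70.8 kb, had 0.49 and 0.88, and Mrpl48, at 62.5 kb, had 0.74 and 1.06. Mrpl1, at 57.2 kb, was the exception at −0.07 and 0.25. Mrpl33 overlaps Bre and Rbks, and Mrps27 and Mrpl48 overlap 1 gene each, so their values share the uncertainty of overlapping genes. Spans are those of the deposited gene coordinates, whereas RPKM belongs to 1 transcript, which may cover less. In ES3 cells the gap was smaller, with a median of 0.04 for the same 7 genes against 0.18 for 2931 others.

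Among short genes the contrast was smaller in MEFs. The 27 members under 5 kb had a MEF median of 0.68, against 0.43 for 1429 others, and an ES3 median of −0.18, against 0.07 for 1722 others. The shortest were Mrpl34 (0.787 kb), Mrpl53 (0.845 kb), Mrpl41 (0.982 kb) and Mrpl36 (1.17 kb). After span centring their MEF ratios were 0.40, −0.01, 0.15 and 0.06, so Mrpl34 lay furthest above its span class among the 4. In ES3 cells their centred ratios were −0.74, −0.29, 0.02 and −0.36. In the middle of the range, 38 members between 4.06 kb and 12.5 kb had medians of −0.24 in ES3 cells and 0.55 in MEFs, against 0.03 (2718 genes) and 0.27 (2387 genes) for others in that range. The span limits of 5 kb and 50 kb were chosen after the values were seen.

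The other genes of mitochondrial translation were read from lists. Mitoribosome proteins with names outside the pattern (7 genes) had medians of −0.29 in ES3 cells and 0.56 in MEFs. Among them Gadd45gip1 stood at 17.1 RPKM and 33.0 RPKM in MEFs (0.91), and Mrp63 was higher in both, at 0.76 and 0.78. Ptcd3 was lower in both, at −0.29 in ES3 cells and −0.29 in MEFs. Assembly factors (18 genes) had −0.23 and 0.35, translation factors (12) −0.19 and 0.24, and mitochondrial aminoacyl-tRNA synthetases (17) −0.31 and 0.12. The elongation factor Tufm stood at 53.2 RPKM and 36.1 RPKM in ES3 cells (−0.54) and at 22.03 RPKM and 33.9 RPKM in MEFs (0.60). The release factor Mtrf1 had −0.98 and −0.20, and the alanyl-tRNA synthetase Aars2 had −0.88 and 0.02. The translation factors (median span 18.1 kb), assembly factors (13.1 kb) and synthetases (30.1 kb) are longer genes than the members, and in MEFs they had medians between that of all genes and that of the ribosomal proteins.

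Oxidative phosphorylation subunits, the complexes in which products of this ribosome end up, had medians of −0.14 in ES3 cells (74 measured) and 0.71 in MEFs (75 measured), or 0.47 after span centring. Of them 10 were 2-fold higher in MEFs, led by Cox6a1 of cytochrome c oxidase, at 470.0 RPKM and 1056 RPKM (1.17), Atp5e (1.15) and Uqcr11 (1.14). Cytosolic ribosomal proteins had medians of −0.08 (76 measured) and 0.67 (73 measured), or 0.24 after span centring, and Rpl39l was 2-fold higher in both cell types. In MEFs the mitochondrial ribosomal proteins thus stood beside both large groups of short, abundant genes, and in ES3 cells their median was the lowest of the 3. None of these orders was tested.

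Genes that act on mitochondrial DNA and regulators of mitochondrial biogenesis had fibroblast medians close to that of all genes. Mitochondrial DNA maintenance and transcription genes had medians of −0.38 in ES3 cells (12 genes) and −0.04 in MEFs (10 measured). Regulators had −0.48 (9 measured) and −0.02 (7 measured). In ES3 cells Pprc1, a coactivator of the PGC-1 family, stood at 85.1 RPKM and 46.9 RPKM (−0.85), and Mycn at 87.9 RPKM and 50.9 RPKM (−0.78). Nrf1 was at 7.59 RPKM and 5.17 RPKM in ES3 cells (−0.48). In MEFs Gabpa, the DNA-binding subunit of NRF2, stood at 9.57 RPKM and 5.03 RPKM (−0.81), and Yy1 at 21.3 RPKM and 17.003 RPKM (−0.31). The nuclear receptor Esrra went the other way from these, at 7.84 RPKM and 13.6 RPKM in ES3 cells (0.73) and 18.02 RPKM and 28.99 RPKM in MEFs (0.66). Gabpb1 was also above 0 in both (0.13 and 0.21), and Myc had −0.53 in ES3 cells and 0.21 in MEFs. The other regulators were below 0 wherever measured. Ppargc1a was under 1 RPKM in all 4 libraries.

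**Figure D4:**
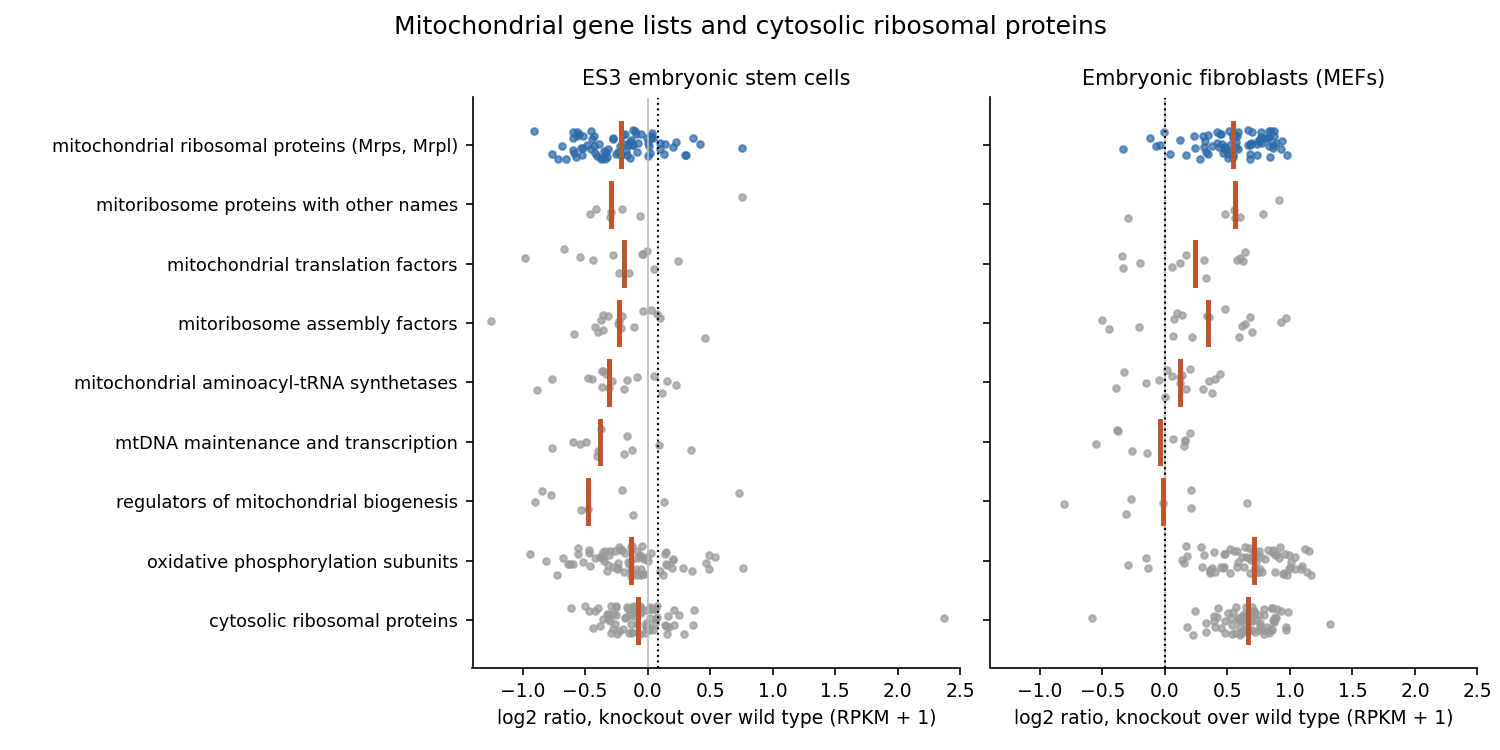
Log2 ratio of knockout to wild type (RPKM + 1) of each measured gene (points) in 9 lists, with the median of each list (red bar), the median of all measured genes (dotted line) and 0 (grey line), in ES3 cells and MEFs. The mitochondrial ribosomal proteins have a median of −0.22 on the left and 0.55 on the right.

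Members whose window held the ETS letters had a MEF median of 0.69 (24 genes), against 0.50 for those without (43). In ES3 cells the medians were −0.24 and −0.18. The 8 genes with YY1 letters had medians of −0.44 in ES3 cells and 0.50 in MEFs, against −0.18 and 0.55 for the other 59, and the 15 with NRF1 letters had −0.24 and 0.45, against −0.18 and 0.56 for the other 52. None of these differences was tested.

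Many members share a promoter region with a gene on the opposite strand. In the deposited coordinates 28 of 76 (36.8%) had an opposite-strand start within 1 kb, against 15.3% of genes measured in ES3 cells and 12.0% of all symbols. Mrpl46 and Mrps11 form such a pair with each other, 412 bases apart, with ES3 ratios of −0.10 and −0.55 and MEF ratios of 0.54 and 0.47. The neighbours that are no members had a median of −0.23 in ES3 cells, with 17 of 25 below 0, against 44.6% of measured genes. The median of the members beside them was −0.30. Close medians do not mean matched pairs, because some pairs had opposite signs in ES3 cells. Mrpl37 with Cyb5rl, Mrps34 with Eme2 and Mrps7 with Gga3 were among these. In MEFs the neighbours had a median of 0.03, with 12 of 24 above 0, while the members beside them had 0.50, and the member was the higher of the pair in 21 of 24. The neighbours are longer, with a median of 17.8 kb among those measured in MEFs, and after span centring the medians were 0.03 and 0.25.

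**Figure D5:**
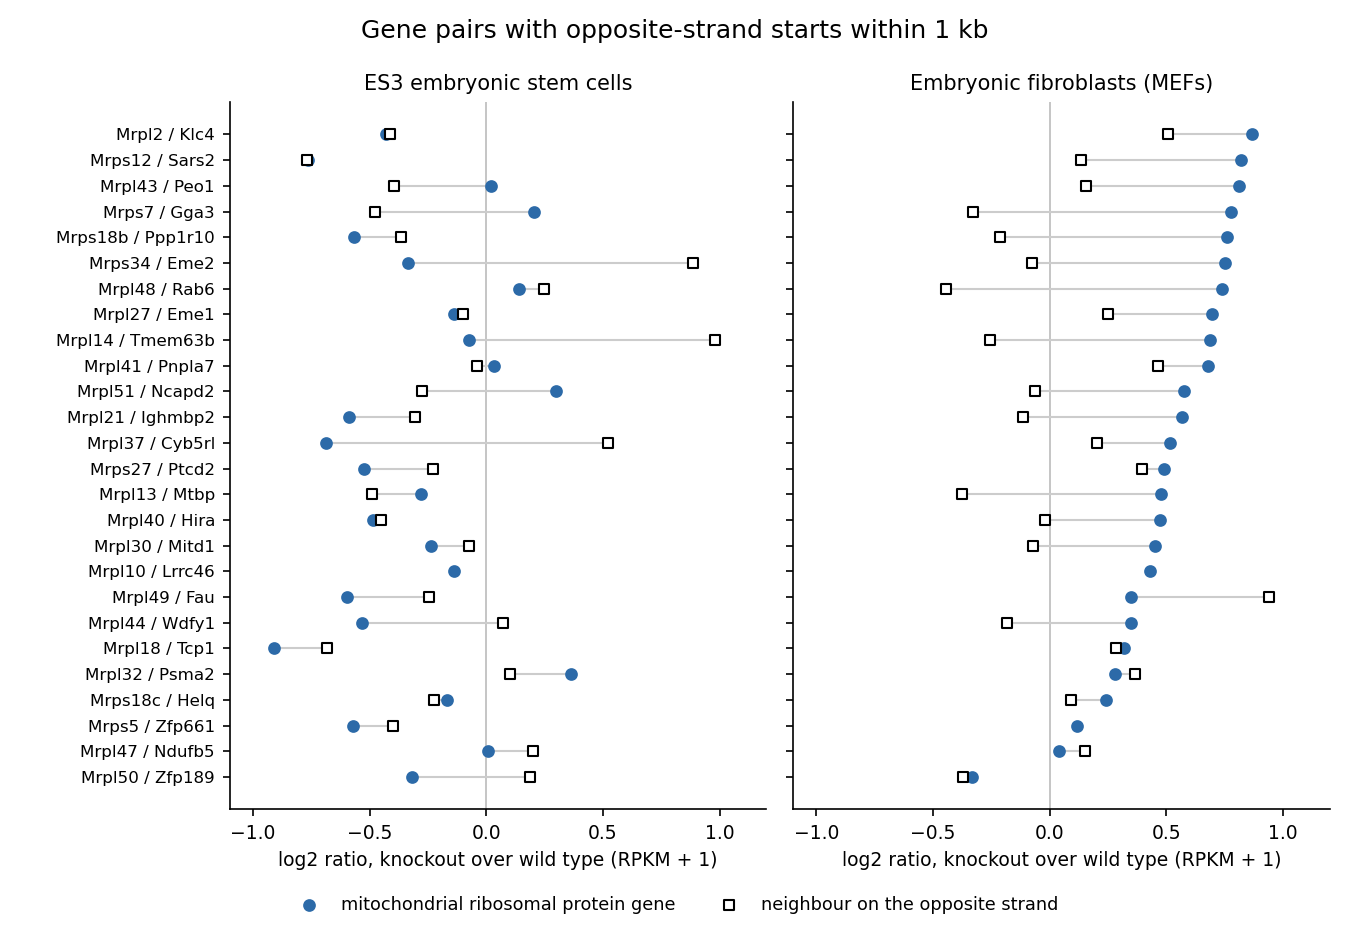
Log2 ratio of knockout to wild type (RPKM + 1) of 26 members (blue points) and of the gene on the opposite strand whose start lies within 1 kb (open squares), in ES3 cells and MEFs. Pairs are ordered by the member's MEF ratio, and a missing square is a gene under 1 RPKM. In MEFs the blue point is the right-hand one in 21 of 24 pairs.

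Mrps12 and Sars2, the mitochondrial seryl-tRNA synthetase, have starts 201 bases apart. In ES3 cells Sars2 stood at 28.6 RPKM and 16.4 RPKM and shared the ratio of Mrps12, at −0.77 and −0.76. In MEFs Sars2 had 0.13, with 5.52 RPKM and 6.15 RPKM, and Mrps12 had 0.82. Mrpl18 and the chaperonin subunit gene Tcp1, which overlap, had −0.91 and −0.68 in ES3 cells and 0.32 and 0.29 in MEFs. Mrpl43 and Peo1, the mitochondrial DNA helicase, had 0.02 and −0.39 in ES3 cells and 0.81 and 0.16 in MEFs. Mrpl49 and Fau, which encodes a cytosolic ribosomal protein, differed the other way in MEFs, at 0.35 and 0.94.

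Chromatin regions mapped in ES3 cells were counted by the members whose start lies within 20 kb of one, and no difference from other genes was tested. A TRIM28 peak of wild type over input lay within 20 kb of the start of 7 members (9.21%, exact 95% interval 3.78 to 18.1%), against 7.18% of measured genes. A peak of wild type over knockout lay that near 4 (5.26%, 1.45 to 12.9%, against 5.08%), and a peak of knockout over input near 6 (7.89%, 2.95 to 16.4%, against 5.23%). An H3K9me3 region of wild type, the repressive mark that TRIM28 complexes place, lay that near 14 members (18.4%, 10.5 to 29.0%), against 21.4%, and one of the knockout near 9 (11.8%, 5.56 to 21.3%), against 19.1%. Regions listed for wild type only lay near 12 members (15.8%, 8.43 to 25.96%), against 15.3%. These 12 were Mrpl11, Mrpl34, Mrpl38, Mrpl39, Mrpl40, Mrps10, Mrps12, Mrps16, Mrps24, Mrps28, Mrps33 and Mrps6. Of them Mrpl11, Mrpl34, Mrpl38 and Mrps10 also had an H3K9me3 region of the knockout within 20 kb of their start. The intervals cover counting error only, and each list is 1 call per condition.

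The 7 members near a TRIM28 peak of wild type over input were Mrpl20, Mrpl30, Mrpl37, Mrpl47, Mrpl9, Mrps10 and Mrps6. Their ES3 log2 ratios were, in that order, −0.13, −0.24, −0.69, 0.01, −0.16, −0.08 and 0.10, a range that lies within that of the other members. Mrps6 (chr16:92058515-92112472, mm9) had both kinds of region, a TRIM28 peak at chr16:92054216-92054926, 3.59 kb from its start, and a wild-type-only H3K9me3 region at chr16:92054377-92054935. Its ES3 levels were 21.2 RPKM and 22.7 RPKM. The Mrps6 peak is not in the list of wild type over knockout within that distance, which holds Mrpl20, Mrpl47 and Mrps10 of these 7 and also Mrps18a, with a peak 1.16 kb from its start. In the list of wild type over input the peak nearest to a start was at Mrpl20, 3.01 kb away, with 58.7 RPKM and 53.4 RPKM. Peaks of knockout over input lay near Mrpl10, Mrpl42, Mrpl54, Mrpl9, Mrps2 and Mrps21. The deposited scores of the 7 peaks of wild type over input ran from 50.58 to 72.02, a scale that is the authors' own.

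Markers of other cell types moved in the same libraries. In ES3 cells all 10 primitive endoderm markers were 2-fold higher in the knockout, their sum going from 71.5 to 1662 RPKM, and all 8 pluripotency markers were below 0 (4 of them 2-fold lower), their sum going from 2488 to 1282 RPKM. Of 6 endothelial markers 3 were 2-fold higher, while Pecam1 (−0.77) and Tek (−0.94) were below 0, and the sums were 21.8 and 33.6 RPKM. Of 7 measured fibroblast markers 4 were 2-fold higher, with sums of 180.0 and 172.1 RPKM, of which Fn1 (−0.32) made up 176.6 and 141.7 RPKM and the other 6 made up 3.40 and 30.4 RPKM. Macrophage and leukocyte markers summed to 172.7 and 90.1 RPKM over the 2 measured, Cd68 and Laptm5, while Ptprc was listed at 0 in wild type. In MEFs 8 of 10 fibroblast markers were below 0 and 2 were 2-fold lower, with sums of 6016 and 4084 RPKM, and the 5 measured macrophage markers summed to 106.0 and 124.8 RPKM. The 5 measured primitive endoderm markers were all below 0 in MEFs, with sums of 1627 and 1461 RPKM. Those sums include the collagen genes Col4a1 (347 and 249 RPKM) and Col4a2 (277 and 217 RPKM). The 2 measured endothelial markers summed to 5.60 and 5.63 RPKM in MEFs. The part of these shifts in the ratios of the mitochondrial ribosomal protein genes was not tested.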

How the data were processed

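RNA of 4 libraries was used: wild-type and Trim28-knockout ES3 cells and wild-type and knockout MEFs, with 1 library per group from pooled duplicates, per the labels. The deposited tables give RPKM per RefSeq transcript, made by the authors, and a ratio column that the authors computed from them, which was not used for results. Reads were aligned with Bowtie to mm9, per the submitters' processing notes. The sources used here do not name the counting tool, the treatment of strand or the totals behind RPKM, so depth is unknown and levels of the 2 tables, normalized separately, are compared only within a table. The authors' TRIM28 peak lists carry a deposited score whose scale is not given, and the deposited H3K9me3 lists give only start and end. In the ES table the columns were read as ES3, the ES line with a knockout among the labels.

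Ratios are log2((knockout + 1)/(wild type + 1)) of RPKM, for genes that reached 1 RPKM in at least 1 library of the pair, with the transcript of highest mean kept per symbol. Span centring subtracted the median of 20 classes of equal numbers of genes. The centring was tested on simulated data. Chromatin regions were counted within 20 kb of a gene's start in the deposited coordinates, with exact 95% binomial intervals. Promoters are RefSeq windows in GRCm38.p6 and were joined by symbol. Python 3.11.15, numpy 2.4.6, pandas 2.3.3, scipy 1.17.1 and matplotlib 3.10.9 were used.

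The members and lists were chosen with earlier results of these data known. Named genes were Trim28; members past 2-fold; the 6 highest and lowest ratios in each cell type; the 4 highest and 2 lowest levels; the 4 largest and smallest differences; the 4 longest and shortest spans; members of known role; up to 3 of each other list with the largest ratios; and members near a chromatin region. Chosen after values were seen were the 1.25-fold size for opposite ratios and the span limits of 5 kb and 50 kb. So were the 1 kb distance for opposite starts, the neighbouring genes, and Gadd45gip1, Mrp63, Ptcd3, Tufm, Nrf1, Yy1, Gabpb1 and Myc as examples. The removal of Cox4nb from the oxidative phosphorylation list was also decided then. Other pseudocounts (0.1 and 5), filters (none and 5 RPKM), transcripts, span classes, fold thresholds, windows and subsets of members were tried. Rex1GFP cells and the H3K27ac and input libraries were not analysed here.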

Additional observations from a re-analysis of the deposited data

Results flagged for a closer look

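The contrast between the cell types is a pattern to look at again, because the ratio was below 0 in ES3 cells and above 0 in MEFs for most members and their median difference, MEF minus ES3, was 0.76 on the log2 scale. The difference was not tested, since each group is 1 library. Among the named genes with at least 1.25-fold in each direction, the difference was 1.65 for Mrpl34, 1.59 for Mrps12, 1.33 for Mrps16, 1.32 for Mrps18b and 1.30 for Mrpl2. It was 1.25 for both Mrpl12 and Mrps21, 1.21 for Mrps30, 1.20 for both Mrpl37 and Mrpl4, 1.19 for Mrpl38, 1.09 for Mrps34 and 1.01 for Mrps27. The smallest were 0.96 for Mrpl40, 0.93 for Mrpl36, 0.88 for Mrpl44 and 0.66 for Mrpl45. Span centring could bring none of these 17 differences below 0, because it takes off less than the smallest of them, 0.66. That all 17 stayed above 0 therefore follows from how they were picked. After centring 4 moved by over 1.5 times: Mrpl36 to 0.42, Mrpl44 to 0.55, Mrps34 to 0.71 and Mrps27 to 1.58. The centred MEF ratios of Mrpl36 and Mrpl44 were 0.06 and 0.00, the level of genes of their span. The ES3 and MEF libraries also differ in days after induction (4 and 5) and in the marker shifts given above, whose part in these differences was not tested.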

How the results depend on the processing

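For 29 medians of the members, their classes and the other lists, 94 alternative values were computed, and none changed sign. Not every setting was tried on every list. The MEF median of the mitochondrial DNA genes lay close to 0, and its sign depends on which genes pass the filter on low values. For single members, span centring changed the sign of 5 ratios in ES3 cells (Mrps28 to −0.18, Mrps2, Mrpl48, Mrps6 and Mrps18a to between −0.05 and 0) and of 7 in MEFs (Mrpl1 to 0.25, Mrpl32 to −0.14, Mrpl47 to −0.12, Mrpl49 to −0.08, Mrps18c to −0.06, Mrpl18 to −0.03 and Mrpl53 to −0.01). The median difference between the cell types ranged from 0.69 to 0.83 and the ES3 median of the members from −0.30 to −0.18. The MEF median was 0.46 with a pseudocount of 5 RPKM, where the small subunit had 0.47, the large subunit 0.46 and the mitochondria-specific genes 0.45. The span-centred MEF median, 0.29, was 0.52 with no filter on low values and 0.21 with a filter at 5 RPKM. After span centring the MEF medians were 0.39 (small subunit), 0.25 (large subunit), 0.27 (bacterial counterpart), 0.30 (mitochondria-specific), 0.47 (oxidative phosphorylation) and 0.24 (cytosolic ribosomal proteins), and the ES3 medians −0.39 (synthetases) and −0.14 (cytosolic ribosomal proteins). At 1.5-fold in place of 2-fold, 1 member was higher and 9 lower in ES3 cells and 33 higher in MEFs, and with a pseudocount of 0.1 RPKM 2 were 2-fold higher in MEFs. TRIM28 peaks lay within 50 kb of 22.4% of members (17.5% of measured genes), and peaks with scores above the list's median within 20 kb of 2.63% (3.44%). H3K9me3 regions lay within 5 kb of 2.63% (5.76%) and within 50 kb of 35.5% (44.2%). The cause of these shifts was not tested, apart from the thresholds and windows, which set the counts directly. No paired analysis was possible because each group is 1 library, and for the same reason no replicate could be left out. Depth is unknown, so the counting error of low genes cannot be given.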
